A study of Mus musculus with 162 samples.

Results

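Cadherins are cell surface proteins that bind cadherins of neighbouring cells through calcium-dependent repeats. The genes described here are the cadherins named Cdh with a number and the non-clustered protocadherins named Pcdh with a number. All genes of the normalized expression table with such a symbol were taken, which gave 23 cadherins and 12 protocadherins, 35 of 22800 genes. Members were chosen by symbol alone and not by their levels. All 35 had a count in at least 1 passed cell.

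The RNA came from single embryonic mouse cells (E17.5 to E18.5), each drawn as cytosol into a patch-clamp pipette, so that each of 162 samples is 1 cell. Cells came from 3 Cre driver lines, in which a neuronal gene's promoter drives the Cre recombinase: 22 from the Lhx6 line (a transcription factor of interneurons), 18 from the Nex line (a gene of glutamatergic neurons also called Neurod6) and 122 from the Htr3a line (a serotonin receptor). Of these, 148 passed the submitters' quality control and are described here by the submitters' type labels. The labels name no animal, litter, culture or reporter allele.

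The GABAergic cells below are the 57 cells of 4 labels: 18 MGE-derived 1, 24 MGE-derived 2, 11 CGE-derived and 4 labelled only GABAergic. MGE and CGE are not spelled out in the labels and were read as the medial and caudal ganglionic eminences, the sources of cortical interneurons. There were 12 Cajal Retzius cells and 11 VZ-derived cells, VZ being read as ventricular zone. The glutamatergic cells are 33 Glutamatergic 1 and 13 Glutamatergic 2 cells, and 22 passed cells were labelled Undefined. Of the MGE-derived cells 14 came from the Lhx6 line and 28 from the Htr3a line. In Glutamatergic 1, the Nex line gave 10 cells and the Htr3a line 23. All CGE-derived and Cajal Retzius cells came from the Htr3a line.

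Because no label says which cells share an animal, each group counts as 1 sample, no difference was tested and no p-value is given. Levels are counts scaled to a common library total (CPM) of a group's summed counts. Beside them stand the number of cells with at least 1 count and the level of the lowest, median and highest cell. A log2 difference is that between the groups' averages of log2(CPM + 1), taken cell by cell and given with the SD between cells. A member is called past the fold where both this difference and the log2 ratio of summed counts reach 1 in the same direction, and the ratio also does so without the highest cell of the higher group. Genes seen in fewer than 10% of the cells in both groups were not considered. The share of all genes past the fold is given as the background for each comparison.

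Passed cells held 1710224 to 24836041 counts in 2066 to 14810 genes. At least 3 of 7 GABAergic markers were present at 10 or more counts in 52 of 57 GABAergic cells and in 1 of 46 glutamatergic cells. Glutamatergic markers were present by the same rule in 14 of 57 GABAergic cells and in 43 of 46 glutamatergic cells. All 12 Cajal Retzius cells held Reln and Trp73, which mark that cell type. In the VZ-derived cells all 8 progenitor markers had a count, at a summed 237 CPM, against 149 CPM in glutamatergic cells, and at least 3 were present by the same rule in 2 of 11 VZ-derived and 1 of 46 glutamatergic cells. Of the progenitor genes, Sox2 had a count in 1 of the 11 VZ-derived cells and Pax6 in 2, whereas the neuronal gene Neurod2 had a count in all 11. These are called cells labelled VZ-derived. Microglial markers were present by the same rule in 27 of 148 passed cells and erythrocyte markers in 35. Results are also given without the 28 cells that held microglial, vascular, meningeal or oligodendrocyte-lineage markers, called the narrower set, and without the 60 that held those or erythrocyte markers, called the wider set.

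Classical cadherins, of type I and type II, join cells of like or related cadherin content and bind catenins inside the cell. In the developing cortex they act in the neuroepithelium, in migration and in the choice of partners, and type II members often differ between neighbouring neuron classes. Protocadherins bind more weakly, and the delta-2 group recruits actin regulators of the WAVE complex. A cell's combination of these genes has been proposed as an adhesive code, with single members shared among classes.

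On average a member was seen in few cells. A count was present in 1399 of 5180 pairs of member and passed cell, and in 1251 pairs after each cell was thinned to 1500000 reads. Of the members 7 were counted in at least 50% of passed cells: Cdh2 in 134 of 148, Cdh13 in 101, Cdh11 in 100, Pcdh17 in 84, Pcdh9 in 83, Cdh4 in 80 and Pcdh7 in 78. Another 9 were counted in fewer than 10 cells. A passed cell held a count of a median of 8 members, with a range of 2 to 27. The member of highest CPM made up a median of 39.3% of a cell's summed member CPM.

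Per length of exon, Pcdh8 was highest over all passed cells at 28.5 CPM per kilobase. Cdh13 followed at 25.3, Cdh4 at 22.9, Cdh2 at 19.4 and Pcdh9 at 15.9 CPM per kilobase. Cdh3 was lowest at 0.00106 CPM per kilobase. On that scale the type I cadherins made up 77.5% of the summed member level in Cajal Retzius cells and 51.1% in CGE-derived cells, against 23.4% over all passed cells. The delta-2 protocadherins made up 12.97% in Glutamatergic 1 cells and 33.7% in Glutamatergic 2 cells, and within Glutamatergic 1 they made up 27.6% in the Nex line and 6.32% in the Htr3a line. Of the 26 members counted in 10 or more passed cells, 9 were highest in Glutamatergic 2, 7 in Glutamatergic 1, 5 in CGE-derived, 4 in MGE-derived 1 and 1 in Cajal Retzius cells, leaving Undefined cells aside. For 22 of the 26 the highest label was the same without the highest cell of each label.

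**Figure D1:**
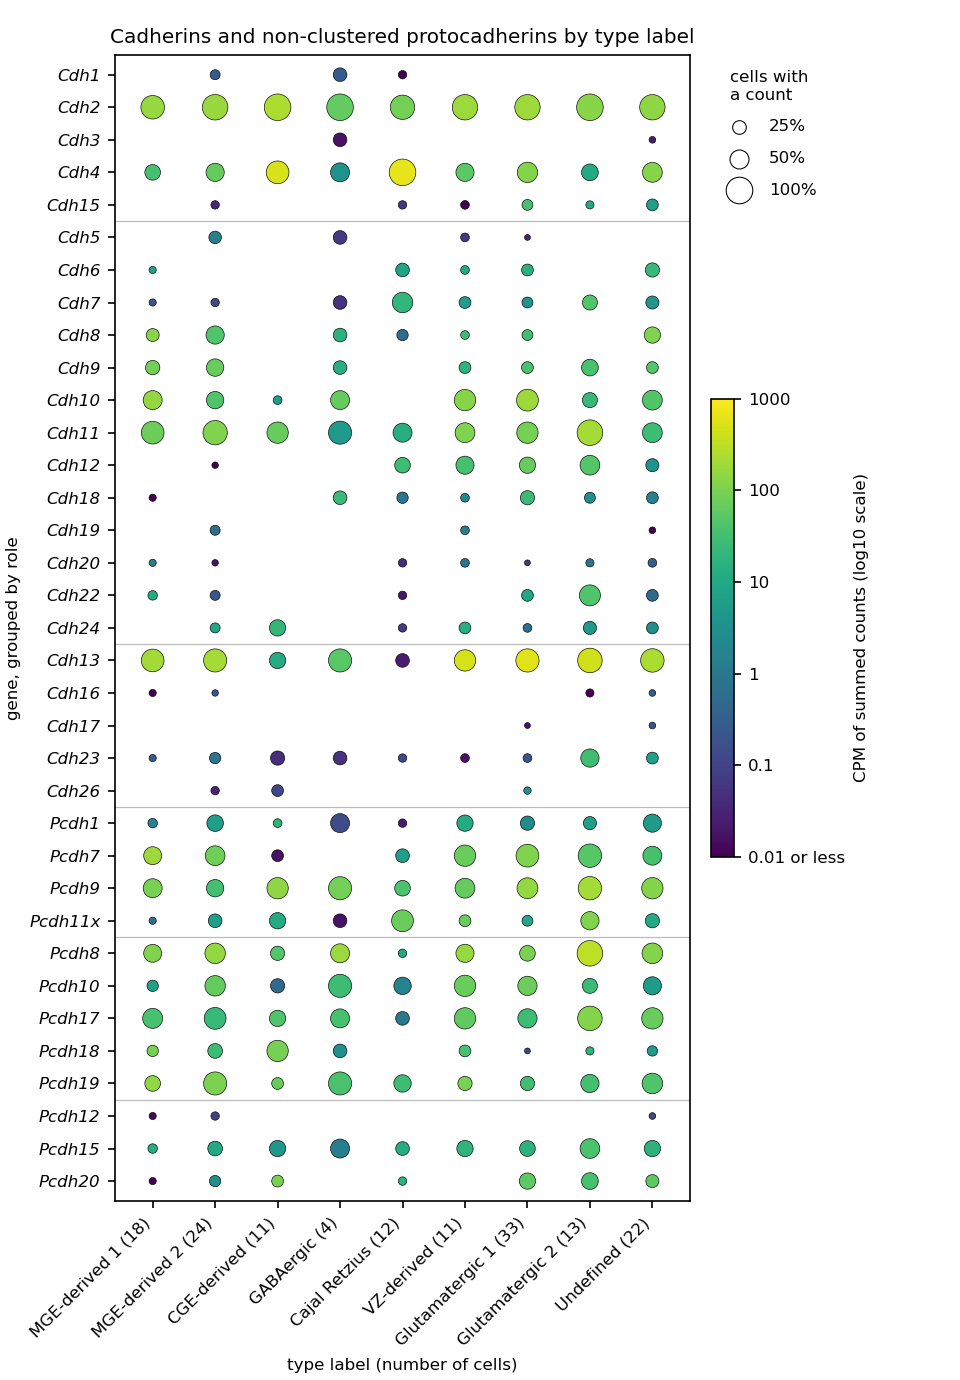
Dot area grows with the percent of cells with a count and colour gives the CPM of summed counts on a log10 scale, for the 35 members (rows, grouped by role) in each type label (columns, with the number of cells). Cdh2 has a large dot in every label, whereas Cdh4 is brightest in Cajal Retzius cells and Cdh13 is near 0 there.

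Among the type I cadherins, Cdh2 (N-cadherin, of the neuroepithelium and synapses) was the most widely present. It reached 164 CPM in MGE-derived 1 cells, 166 in MGE-derived 2, 238 in CGE-derived, 87.6 in Cajal Retzius, 180 in cells labelled VZ-derived, 187 in Glutamatergic 1 and 130 in Glutamatergic 2 cells. Single cells spanned 0 to 772 CPM within MGE-derived 2 and 0 to 810 CPM within Glutamatergic 1, so that these labels overlapped throughout. By the rule above and with all cells of each group, Cdh2 was past the fold in none of the 8 comparisons.

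Cdh4 (R-cadherin) varied more between labels than Cdh2. It reached 655 CPM in Cajal Retzius cells and 487 CPM in CGE-derived cells. Next came Undefined cells at 121 CPM, 70.9% of it from 1 cell, and Glutamatergic 1 cells at 120 CPM, while Glutamatergic 2 cells were at 10.9 CPM. In CGE-derived cells 41.8% of the counts came from 1 cell. Cdh15 (M-cadherin, best known from muscle) had a count in 14 cells. It reached 34.7 CPM in Glutamatergic 1 cells, where 5 of 33 cells held it. Cdh1 (E-cadherin) had a count in 5 passed cells and Cdh3 (P-cadherin) in 2, neither above 1 CPM in any label.

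The type II cadherins were the largest group. Cdh11 was counted most widely, in 20 of 24 MGE-derived 2 cells (113 CPM), 6 of 12 Cajal Retzius cells (14.2 CPM) and 12 of 13 Glutamatergic 2 cells (216 CPM). Cdh10 followed in 67 cells, Cdh12 in 34, Cdh9 in 33 and Cdh8 in 32. Cdh7 was held by 7 of 12 Cajal Retzius cells at 19.4 CPM and was highest in Glutamatergic 2 cells at 43.1 CPM, of which 68.1% came from 1 cell. Cdh22 had its highest level in Glutamatergic 2 cells at 41.1 CPM and Cdh24 in CGE-derived cells at 20.4 CPM, 74.4% of it from 1 cell. Cdh6 had a count in 17 cells and Cdh18 in 20. Cdh20 (8 cells), Cdh5 (VE-cadherin of endothelium, 8 cells) and Cdh19 (5 cells) stayed at or below 1.44 CPM in every label.

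Among the other cadherins, Cdh13 (T-cadherin, held to the membrane by a lipid anchor and without the catenin-binding tail) had the highest CPM of any member over all passed cells, 285. It was the leading member in 43 of 148 cells, more than any other. Cdh23, a partner of Pcdh15 in the tip links of inner ear hair cells, was counted in 6 of 13 Glutamatergic 2 cells at 29.1 CPM and reached no more than 6.75 CPM in any other label. Cdh16 and Cdh17, known from kidney and intestine, had counts in 4 and 2 cells and stayed below 1 CPM in every label. Cdh26 had a count in 6 cells, with 96.5% of its counts in 1 Glutamatergic 1 cell.

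**Figure D2:**
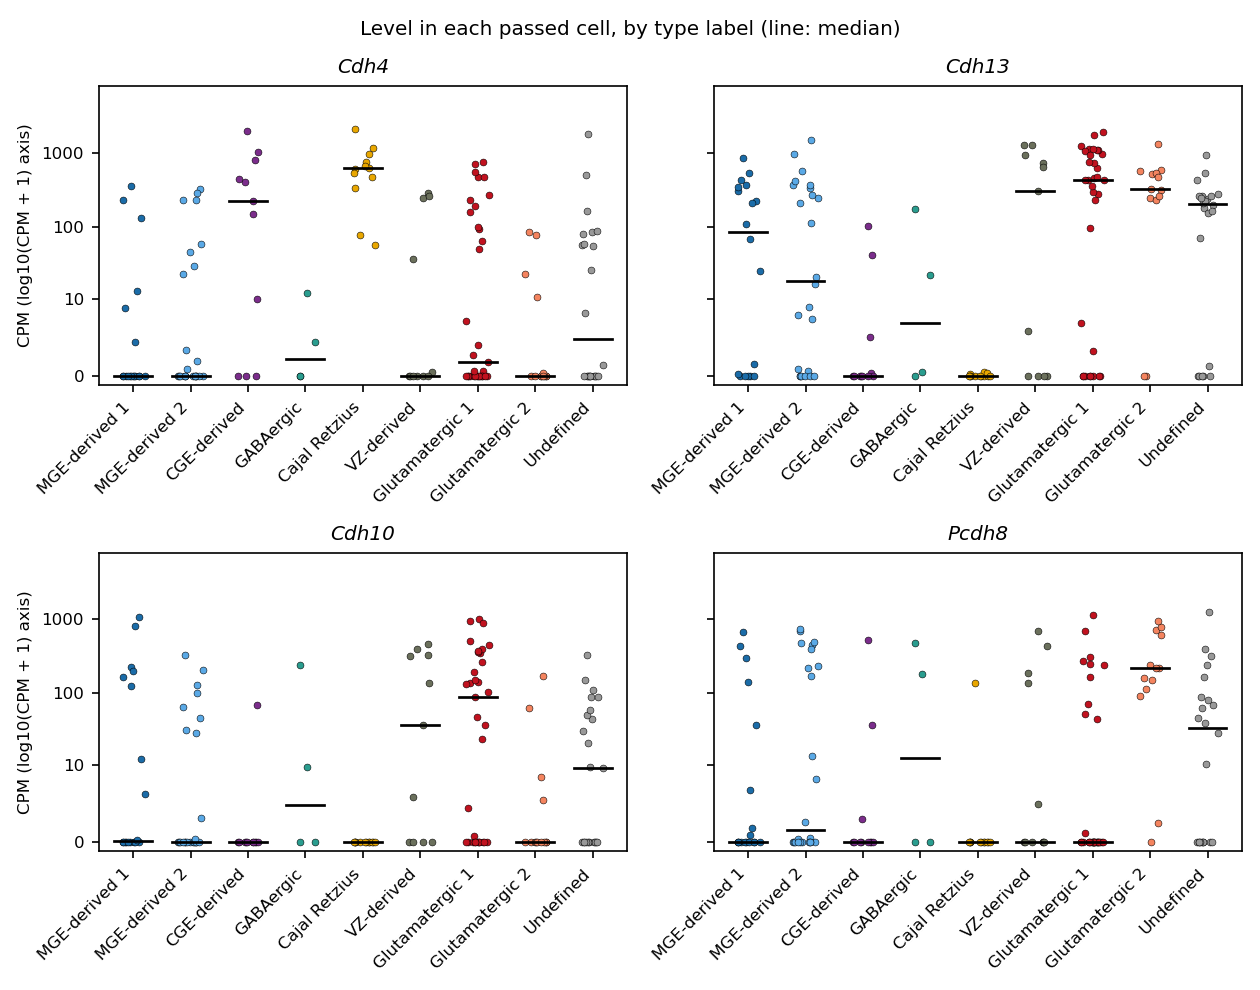
Each point is 1 passed cell and the line is the median, with CPM on a log10(CPM + 1) axis, for Cdh4, Cdh13, Cdh10 and Pcdh8 by type label. All 12 Cajal Retzius cells lie at 57.5 CPM or more for Cdh4, none of them above 0.117 CPM for Cdh13 and all at 0 for Cdh10.

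Of the delta-1 protocadherins, Pcdh9 reached 151 CPM in Glutamatergic 1 cells and 208 CPM in Glutamatergic 2 cells, and Pcdh7 reached 189 CPM in MGE-derived 1 cells, with 53.8% of those counts from 1 cell. Pcdh11x, on the X chromosome, was highest in Glutamatergic 2 cells at 110 CPM, in 6 of 13 cells. Pcdh1 had a count in 41 cells and a level of at most 16.2 CPM in any label. Of the remaining protocadherins, Pcdh20 had a count in 30 cells and Pcdh15 in 48. Pcdh12, known from endothelium, had a count in 4 cells at no more than 0.132 CPM in any label.

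Each of the 5 delta-2 protocadherins was past the fold in at least 1 comparison below, and their promoter windows are shown for that reason. The RefSeq start of each lies within 10 bases of the GENCODE gene start. Each window runs from 250 bases before to 50 bases after the RefSeq start, 5′ to 3′ on the gene's strand, build GRCm38.p6. Capitals mark a match of either strand to 1 of 5 motifs searched. The homeodomain core was searched as TAATTA. The first E-box form was searched as CAGCTG. The second E-box form was searched with the letters CAGATG. The GC box used in the search was GGGCGG. The TATA box searched for had the letters TATAAA. No motif overlapped another in these windows.
Pcdh8 (chr14:79771263-79771562, minus strand): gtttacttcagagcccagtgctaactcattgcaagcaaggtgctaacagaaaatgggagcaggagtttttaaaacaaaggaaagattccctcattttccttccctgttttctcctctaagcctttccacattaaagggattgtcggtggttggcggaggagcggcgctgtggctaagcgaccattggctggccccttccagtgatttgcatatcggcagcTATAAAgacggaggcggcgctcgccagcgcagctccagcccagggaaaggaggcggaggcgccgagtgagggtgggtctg
Pcdh10 (chr3:45378148-45378447, plus strand): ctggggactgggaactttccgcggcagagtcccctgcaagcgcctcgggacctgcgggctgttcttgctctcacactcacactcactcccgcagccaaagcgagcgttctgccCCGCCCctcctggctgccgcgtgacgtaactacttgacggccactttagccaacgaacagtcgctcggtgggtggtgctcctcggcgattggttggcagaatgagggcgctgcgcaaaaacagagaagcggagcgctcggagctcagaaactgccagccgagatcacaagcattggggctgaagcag
Pcdh17 (chr14:84443313-84443612, plus strand): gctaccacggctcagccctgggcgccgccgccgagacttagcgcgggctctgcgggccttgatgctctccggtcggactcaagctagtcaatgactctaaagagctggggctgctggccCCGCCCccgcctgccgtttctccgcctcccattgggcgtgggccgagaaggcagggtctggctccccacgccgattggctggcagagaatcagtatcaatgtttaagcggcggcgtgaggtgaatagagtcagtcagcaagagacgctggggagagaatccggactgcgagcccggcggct
Pcdh18 (chr3:49757267-49757566, minus strand): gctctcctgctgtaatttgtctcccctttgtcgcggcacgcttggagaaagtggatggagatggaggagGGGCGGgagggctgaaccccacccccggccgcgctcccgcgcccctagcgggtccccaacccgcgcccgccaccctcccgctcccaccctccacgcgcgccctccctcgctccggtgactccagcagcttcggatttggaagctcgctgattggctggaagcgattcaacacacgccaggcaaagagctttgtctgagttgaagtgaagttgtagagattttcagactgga
Pcdh19 (chrX:133688944-133689243, minus strand): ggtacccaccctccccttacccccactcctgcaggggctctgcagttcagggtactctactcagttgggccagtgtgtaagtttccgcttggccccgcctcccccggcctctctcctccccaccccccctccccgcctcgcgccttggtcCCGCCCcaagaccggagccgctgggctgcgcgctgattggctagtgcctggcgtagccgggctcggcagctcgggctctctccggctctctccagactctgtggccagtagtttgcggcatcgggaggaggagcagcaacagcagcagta

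The windows of Pcdh10, Pcdh17, Pcdh18 and Pcdh19 held GGGCGG once each, a motif of 35.7% of all 32851 windows. That of Pcdh8 held TATAAA once, as did 13.6% of all windows. None of the 5 held the homeodomain core or either E-box, which were in 5.29%, 16.3% and 17.2% of all windows. Their GC content was 54.3% for Pcdh8, 62.3% for Pcdh10, 65.0% for Pcdh17, 63.0% for Pcdh18 and 67.7% for Pcdh19, against a median of 52.7% over all windows. A motif match is a description of these letters only. RefSeq windows were matched for 22 of the 35 members.

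Between GABAergic and glutamatergic cells, Pcdh18 and Pcdh19 were higher and Cdh12, Cdh13, Cdh18 and Pcdh9 were lower in GABAergic cells. These 6 were the members past the fold of 27 considered, beside a background of 8.14% of 13139 genes (3.36% higher and 4.79% lower). The median log2 difference was -0.79 over the 27 members and -0.02 over all genes considered. GABAergic cells held a median of 4894 genes and glutamatergic cells 5620.5. In cells of 4000 to 8000 genes, 36 GABAergic and 30 glutamatergic, Pcdh18, Cdh12, Cdh13 and Cdh18 stayed past the fold. Pcdh19 and Pcdh9 did not, and Cdh10, Cdh15 and Pcdh10 were added on the lower side.

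Pcdh19, an X-linked gene whose human counterpart is mutated in a form of epilepsy, was at 100.5 CPM in GABAergic cells and 31.3 CPM in glutamatergic cells. Single cells ranged from 0 to 809 CPM, with a median of 0.427, in GABAergic cells and from 0 to 479.5 CPM, with a median of 0, in glutamatergic cells. A count was present in 29 of 57 GABAergic and 15 of 46 glutamatergic cells, and the log2 difference was 1.43 (SD 3.52 and 2.92). The ranges overlapped, and a larger share of GABAergic cells held the gene. Pcdh18 was at 55.5 CPM in GABAergic cells and 6.45 CPM in glutamatergic cells. It had a count in 18 of 57 GABAergic cells, the highest at 1104 CPM, and in 2 of 46 glutamatergic cells, the highest at 308 CPM. Its log2 difference was 1.48 (SD 3.18 and 1.26).

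Cdh12 was nearly absent from GABAergic cells. It had 2 counts in 1 of 57 GABAergic cells, 0.00366 CPM (95% Poisson interval 0.000443 to 0.0132), and 59.6 CPM in glutamatergic cells, of which 19 of 46 held it with a highest cell at 614 CPM. The 1 GABAergic cell was MGE-derived 2 and lost its counts when thinned, whereas all 19 glutamatergic cells kept theirs. Cdh18 was at 2.55 CPM in GABAergic cells and 16.96 CPM in glutamatergic cells, in 2 of 57 and 11 of 46 cells. Of the Cdh18 counts in GABAergic cells all but 1 came from a single cell labelled GABAergic.

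Cdh13 was at 151 CPM in GABAergic cells and 523 CPM in glutamatergic cells. Its single cells ranged from 0 to 1470 CPM, with a median of 7.40, in GABAergic cells and from 0 to 1926 CPM, with a median of 432, in glutamatergic cells. Its log2 difference was -2.88 (SD 3.88 and 4.03). Pcdh9 was at 78.8 CPM in GABAergic cells and 171 CPM in glutamatergic cells, and its log2 difference was -2.0 (SD 3.45 and 3.95). For both genes, high cells were present on either side and the cells at 0 were more numerous among GABAergic cells, 19 of 57 against 10 of 46 for Cdh13.

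Within the Htr3a line alone, with 42 GABAergic and 35 glutamatergic cells, 12 of 27 members were past the fold beside 11.1% of genes. All 6 members of the full comparison were among them. Cdh8 was added on the higher side, at 47.6 CPM in GABAergic and 0.795 CPM in glutamatergic cells. Cdh7, Cdh10, Cdh22, Pcdh11x and Pcdh17 were added on the lower side. In the full comparison the Lhx6 line gave 15 of the 57 GABAergic cells and the Nex line 11 of the 46 glutamatergic cells, so that line and class are partly confounded there. Microglial markers summed to 0 to 12310 CPM in single GABAergic cells and 0 to 4855 CPM in single glutamatergic cells, with all 8 markers present in each class. Erythrocyte markers were present by the rule in 16 of 57 GABAergic and 9 of 46 glutamatergic cells. Leaving out the narrower set gave 9 members, and leaving out cells with 3 markers of the other neuron class gave 8, with the 6 members named among both. Leaving out the wider set kept 32 GABAergic and 31 glutamatergic cells and gave 9 members, among which Pcdh18, Cdh12, Cdh13 and Cdh18 remained. Pcdh19 and Pcdh9 were not past the fold there, with log2 differences of 0.32 and -2.03, and for Pcdh9 it was the ratio of summed counts that fell short.

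Among the cadherin-binding proteins of the cytoplasm and related genes listed beside the members, 3 of 21 considered were past the fold. Cyfip1, a WAVE complex subunit, was higher at 207 CPM in GABAergic cells against 66.6 CPM in glutamatergic cells. Pkp4, a p120-family catenin, was lower at 19.2 CPM against 78.9 CPM, and Dab1, which is a reelin signalling adaptor and no cadherin partner, was lower at 79.0 CPM against 331 CPM. Of 12 other cadherin superfamily genes considered, 1 passed, Fat4 (a giant cadherin), at 26.2 CPM in GABAergic cells and 104 CPM in glutamatergic cells. Of the nectin and processing genes, Nectin2, Nectin3 and the protease gene Pcsk5 were lower in GABAergic cells.

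The comparison of Cajal Retzius with glutamatergic cells had the most members past the fold of the 8 comparisons, 12 of 25, beside a background of 14.5% of 12722 genes (7.02% higher and 7.46% lower). Cdh4 alone was higher in Cajal Retzius cells. The 11 lower members were Cdh9, Cdh10, Cdh11, Cdh13, Cdh22, Pcdh7, Pcdh8, Pcdh9, Pcdh10, Pcdh17 and Pcdh20. Cajal Retzius cells are early reelin-secreting neurons of the marginal zone. This comparison shares its glutamatergic cells with the one above, so the 2 sets of values are not independent.

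Cdh4 had a count in all 12 Cajal Retzius cells and in 24 of 46 glutamatergic cells, and in 12 and 23 cells after thinning. Cajal Retzius cells lay between 57.5 and 2121 CPM, with a median of 617. Glutamatergic cells lay between 0 and 758 CPM, with a median of 0.140. The summed levels were 655 and 81.5 CPM, 8.04-fold higher in Cajal Retzius cells, and the log2 difference was 6.14 (SD 1.49 and 3.59). Without the highest cell of each group the levels were 574 and 69.9 CPM. In 10 of 12 Cajal Retzius cells Cdh4 was the leading member, as it was in 3 of 11 CGE-derived cells.

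Cdh13 had 4 counts in 3 of 12 Cajal Retzius cells, which is 0.0257 CPM (95% Poisson interval 0.00699 to 0.0657). Glutamatergic cells stood at 523 CPM, with a count in 36 of 46 cells. No Cajal Retzius cell exceeded 0.117 CPM, whereas the median glutamatergic cell was at 432 CPM. After thinning 1 of 12 Cajal Retzius cells and 35 of 46 glutamatergic cells held a count. The ranges overlapped only at or below 0.117 CPM.

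Cdh10 and Cdh9 had no count in any of the 12 Cajal Retzius cells, which allows a share of cells with a count of up to 25% by counting alone. Glutamatergic cells were at 121 CPM for Cdh10, in 26 of 46 cells, and 37.0 CPM for Cdh9, in 11 of 46 cells. Taking 3 counts over the Cajal Retzius group as the floor, Cdh10 was at least 6306-fold and Cdh9 at least 1921-fold lower. Cdh11 was at 14.2 CPM in Cajal Retzius cells and 136 CPM in glutamatergic cells, and 97.3% of the Cajal Retzius counts came from 1 cell. Cdh22 had 3 counts in 1 Cajal Retzius cell, against 20.4 CPM in 14 of 46 glutamatergic cells.

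All delta-2 protocadherins but Pcdh19 and Pcdh18 were lower. Pcdh8 was at 10.7 CPM in Cajal Retzius cells, all from 1 of 12 cells, and 178 CPM in glutamatergic cells, in 23 of 46. Pcdh17 was at 0.962 CPM in Cajal Retzius cells (3 of 12) and 60.8 CPM in glutamatergic cells (28 of 46). Pcdh10 was at 1.71 CPM in Cajal Retzius cells (5 of 12) and 57.4 CPM in glutamatergic cells (21 of 46). Pcdh19 stood at 28.1 and 31.3 CPM, a log2 difference of -0.20, and Pcdh18 had no count in Cajal Retzius cells and was in too few glutamatergic cells (2 of 46) to be considered. Of the delta-1 group, Pcdh7 was at 6.09 CPM in Cajal Retzius and 88.2 CPM in glutamatergic cells, and Pcdh9 at 39.0 and 171 CPM. Pcdh11x did not follow, at 72.4 CPM in 8 of 12 Cajal Retzius cells and 45.2 CPM in 11 of 46 glutamatergic cells, a log2 difference of 2.40 without a matching ratio of sums.

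**Figure D3:**
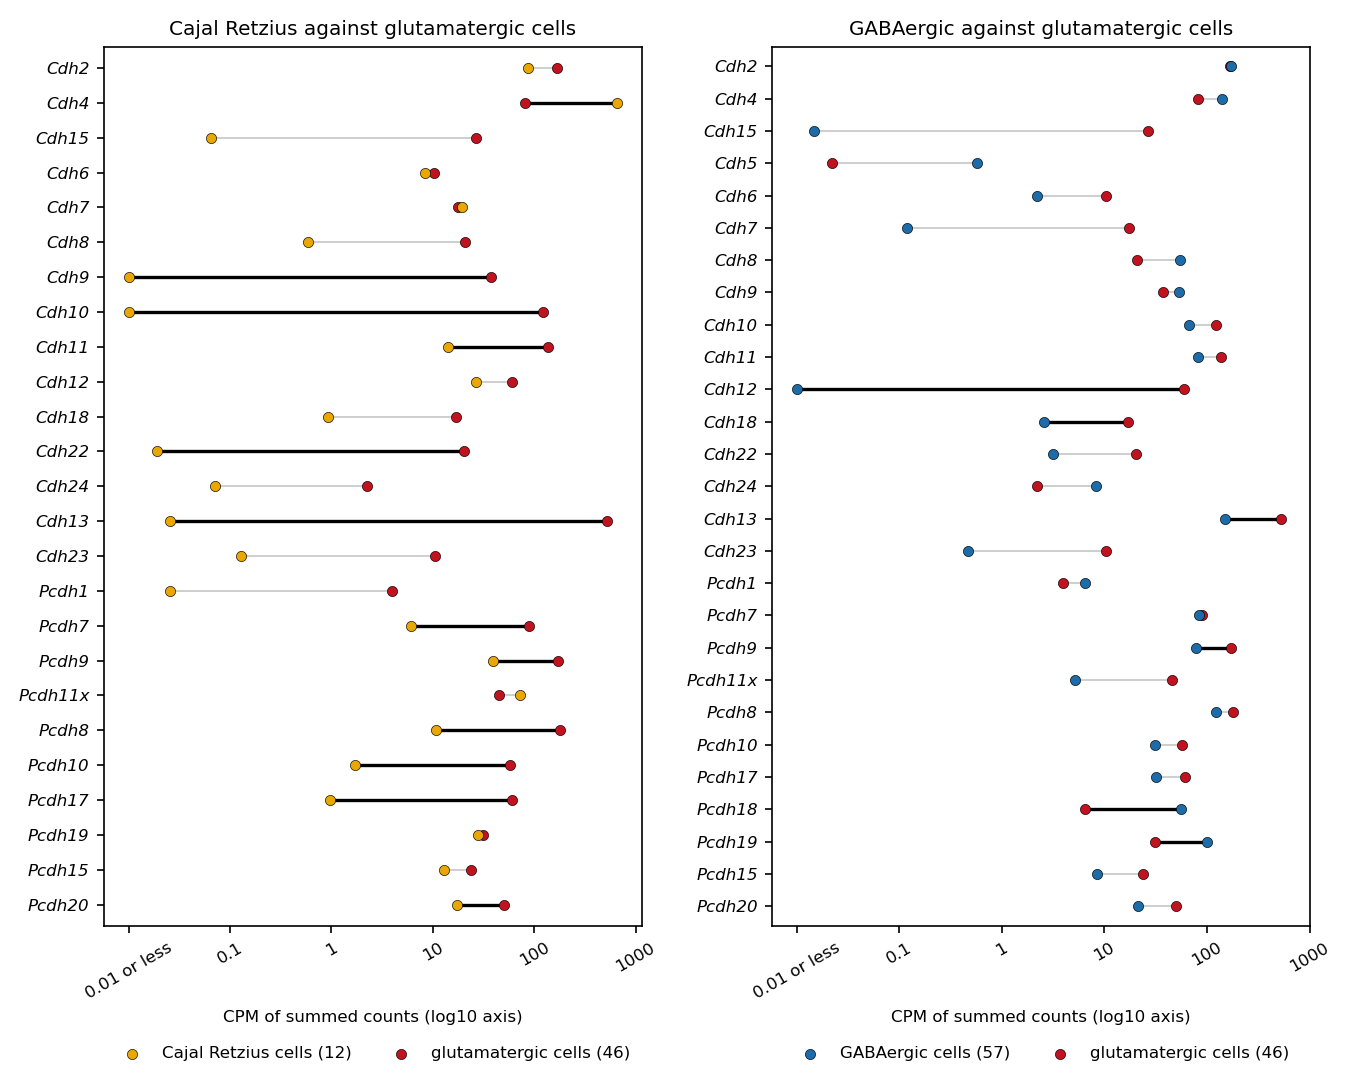
CPM of summed counts on a log10 axis for the members considered, in Cajal Retzius and glutamatergic cells (left) and in GABAergic and glutamatergic cells (right); black bars join the values of members past the fold and grey bars those of the others. In the left panel 11 of the 12 black bars run to lower values in Cajal Retzius cells and Cdh4 runs to a higher one.

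Cajal Retzius cells held a median of 6714 genes against 5620.5 in glutamatergic cells, and the median log2 difference of all genes was 0.51, with a median log2 ratio of summed counts of -0.12. For the members these medians were -0.94 and -4.05. Other cadherin superfamily genes did not share the direction: of 11 considered 5 were higher and 1, Fat4, was lower. Clstn1, a calsyntenin of synapses and axonal transport, was at 928 CPM in Cajal Retzius and 130 CPM in glutamatergic cells, and Clstn2 at 538 and 68.0 CPM. Fat3 was at 271 and 57.8 CPM and Fat1 at 95.9 and 19.8 CPM, and Celsr2 was the other higher gene. Of 21 cytoplasmic genes 4 were lower and none higher: Ctnnd1 and Ctnnd2, both p120-family catenins, the actin linker Vcl, and Dab1. Of 9 nectin and processing genes 1 was past the fold, Nectin3, at 1.97 CPM in Cajal Retzius and 88.2 CPM in glutamatergic cells. Microglial markers were present by the rule above in 3 of 12 Cajal Retzius cells and 6 of 46 glutamatergic cells. Erythrocyte markers were present in 1 of 12 and 9 of 46. Without the narrower set 12 members were past the fold and without the wider set 13, in each case with all but Pcdh20 of the 12 named. All Cajal Retzius cells came from the Htr3a line. With its 35 glutamatergic cells, 12 members were past the fold, 11 of them the same, beside 15.6% of genes. Pcdh20 was not among these, and Cdh12 was added as lower. In cells of 4000 to 8000 genes, 8 Cajal Retzius and 30 glutamatergic, Cdh22 and Pcdh20 were not past the fold. The other members named stayed, and Cdh2 and Cdh15 were added as lower in Cajal Retzius cells.

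MGE-derived and CGE-derived cells are interneuron precursors of different origin. Between them 8 of 23 members were past the fold, beside a background of 14.3% of 12753 genes (10.9% higher and 3.43% lower). Cdh8, Cdh9, Cdh10, Cdh13, Pcdh7, Pcdh8 and Pcdh10 were higher and Cdh4 was lower in MGE-derived cells. Cdh8 was at 77.8 CPM in MGE-derived cells, in 15 of 42 cells, and Cdh9 at 76.4 CPM, also in 15. Neither had a count in the 11 CGE-derived cells, which makes them at least 3043-fold and 2987-fold higher in MGE-derived cells against a floor of 3 counts. With 11 cells, a count of 0 allows up to 27.3% of CGE-derived cells with a count, by counting alone, and sets no limit on cells that express the gene.

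Cdh13 was at 210 CPM in MGE-derived cells and 11.5 CPM in CGE-derived cells. Single cells ranged from 0 to 1470 CPM, with a median of 46.1, in MGE-derived cells and from 0 to 103 CPM, with a median of 0, in CGE-derived cells. Pcdh7 was at 122 CPM in 21 of 42 MGE-derived cells and had 2 counts in CGE-derived cells, 0.0170 CPM (95% Poisson interval 0.00206 to 0.0616). Cdh10 was at 84.9 CPM in MGE-derived cells (19 of 42) and 5.85 CPM in CGE-derived cells (1 of 11). Pcdh8 was at 138 and 43.2 CPM and Pcdh10 at 41.4 and 0.511 CPM in the same order, with 68.7% of the MGE-derived Pcdh10 counts from 1 cell.

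Cdh4 went the other way, at 52.2 CPM in MGE-derived cells and 487 CPM in CGE-derived cells. Levels per cell ranged from 0 to 355 CPM, with a median of 0, in MGE-derived cells and from 0 to 1977 CPM, with a median of 227, in CGE-derived cells. A count was present in 17 of 42 and 8 of 11 cells. Pcdh18 had a log2 difference of -2.65 but summed levels of 52.3 and 91.4 CPM, short of the fold. Within the Htr3a line, with 28 MGE-derived and 11 CGE-derived cells, it was past the fold at 33.7 CPM in MGE-derived and 91.4 CPM in CGE-derived cells, and all 8 members above remained, beside 14.9% of genes. The 2 groups held medians of 4759.5 and 4894 genes per cell. Microglial markers were present by the rule above in 6 of 42 MGE-derived and 2 of 11 CGE-derived cells, and erythrocyte markers in 14 of 42 and 2 of 11. All 8 members were past the fold without the narrower and without the wider set. Among the listed partners Ctnna1, the alpha-E-catenin gene, was at 24.9 CPM in 11 of 42 MGE-derived cells and had 1 count in the CGE-derived cells. Cyfip1 was higher too, Dab1 lower, and the other 18 of 21 listed partners were short of the fold. Among the other lists Dchs2 and Nectin1 were lower and Nectin2 higher in MGE-derived cells.

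Between MGE-derived 1 and MGE-derived 2 cells only Pcdh10 was past the fold, 1 of 24 members beside 9.57% of 13837 genes (1.22% higher and 8.35% lower). It was at 7.001 CPM in MGE-derived 1 cells (3 of 18) and 64.5 CPM in MGE-derived 2 cells (14 of 24). A single MGE-derived 2 cell at 2400 CPM gave 73.8% of those counts, and without it the level was 17.3 CPM. MGE-derived 1 cells held a median of 4563 genes and MGE-derived 2 cells 5493.5, and the median log2 difference was -0.39 over all genes and -0.38 over the members. By the rule above 1 of 18 and 5 of 24 cells held microglial markers, and 6 of 18 and 8 of 24 held erythrocyte markers. Without the narrower set Pcdh10 was no longer past the fold, and Cdh10 and Pcdh9 were, both higher in MGE-derived 1. Pcdh10 was also not past the fold in cells of 4000 to 8000 genes, 11 and 15 of them. There Pcdh9 was higher and Pcdh18 lower in MGE-derived 1. With the deposited normalized values Pcdh10 was again not past the fold, whereas Cdh10 was higher and Pcdh1 and Pcdh11x lower in MGE-derived 1. Without the wider set these 2 and Pcdh10 were past the fold, in 11 cells of each label. Vcl, Cyfip1 and Dab1 of the partner list and Fat4 and Celsr3 of the superfamily list were lower in MGE-derived 1 cells, and no nectin or processing gene was past the fold.

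Of the Glutamatergic labels, Glutamatergic 1 was higher for Cdh4, Cdh10 and Pcdh10 and lower for Cdh7, Cdh22, Cdh23, Pcdh8, Pcdh11x and Pcdh17. These were 9 of 25 members, beside 10.1% of 12564 genes. Fewer genes were counted in Glutamatergic 1 cells, a median of 4954 against 7585 in Glutamatergic 2 cells, and the median log2 difference over all genes was -0.97. On that scale 1.01% of all genes were past the fold as higher and 9.09% as lower in Glutamatergic 1. In cells of 4000 to 8000 genes, 21 and 9 of them with medians of 5434 and 7519 genes, 10 members were past the fold, 5 of them the same. Pcdh8, Pcdh10, Cdh7 and Cdh22 were not past the fold there. Cdh6, Cdh15 and Pcdh7 were added as higher and Cdh11 and Pcdh15 as lower in Glutamatergic 1. The Nex line gave 10 of the 33 Glutamatergic 1 cells and 1 of the 13 Glutamatergic 2 cells. Within the Htr3a line 11 of 25 members were past the fold, beside 13.2% of genes. Cdh22 was not among them, and Cdh18 was added as higher and Pcdh15 and Pcdh19 as lower in Glutamatergic 1.

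Cdh10 was at 175 CPM in Glutamatergic 1 cells and 22.2 CPM in Glutamatergic 2 cells. The cells ranged from 0 to 1023 CPM, with a median of 88.5, in Glutamatergic 1 and from 0 to 172 CPM, with a median of 0, in Glutamatergic 2. A count was present in 22 of 33 and 4 of 13 cells. Cdh4 was at 120 CPM in Glutamatergic 1 and 10.9 CPM in Glutamatergic 2 cells, and Pcdh10 at 74.4 and 25.9 CPM.

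Pcdh8, a protocadherin induced by neuronal activity, was at 97.9 CPM in Glutamatergic 1 and 325 CPM in Glutamatergic 2 cells. Single cells ranged from 0 to 1138 CPM, with a median of 0, in Glutamatergic 1 and from 0 to 947 CPM, with a median of 221, in Glutamatergic 2. A count was present in 11 of 33 and 12 of 13 cells, unchanged after thinning. Pcdh17 was at 28.5 CPM in Glutamatergic 1 (17 of 33) and 120 CPM in Glutamatergic 2 cells (11 of 13). Pcdh11x was at 10.2 and 110 CPM, Cdh22 at 9.14 and 41.1 CPM, Cdh7 at 3.70 and 43.1 CPM, and Cdh23 at 0.207 and 29.1 CPM in the same order. Of the other lists, Jup, Wasf1, Fat4, Clstn2, Clstn3, Cdhr1, Psen2 and Furin were lower in Glutamatergic 1 cells and none was higher. Of these cells 4 of 33 and 2 of 13 held microglial markers by the rule, and 7 of 33 and 2 of 13 held erythrocyte markers. The same 9 members were past the fold without the narrower set, and with Cdh6 added without the wider set.

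Between cells labelled VZ-derived and glutamatergic cells 2 of 26 members were past the fold, beside 12.3% of 12256 genes (2.99% higher and 9.28% lower). Cdh22 and Pcdh20 had no count in the 11 cells labelled VZ-derived. Glutamatergic cells were at 20.4 CPM for Cdh22 (14 of 46 cells) and 49.98 CPM for Pcdh20 (17 of 46). Against a floor of 3 counts these were at least 765-fold and 1875-fold lower. Cdh13 was at 472 CPM in cells labelled VZ-derived and 523 CPM in glutamatergic cells, and Cdh10 at 122 and 121 CPM. In cells of 4000 to 8000 genes, of which 6 were labelled VZ-derived, 6 members were past the fold, all lower in cells labelled VZ-derived. Pcdh20 was among them and Cdh22 was not. Ctnnd1, Pkp4 and Celsr2 of the other lists were lower and Mmp14 higher in cells labelled VZ-derived. Of these cells 2 of 11 held microglial and 3 of 11 erythrocyte markers by the rule. Cdh22 and Pcdh20 were past the fold without the narrower set, with 4 members in all, and without the wider set, with 5. Of the cells labelled VZ-derived 8 came from the Htr3a line, 1 from the Lhx6 line and 2 from the Nex line. Within the Htr3a line, with 8 of these and 35 glutamatergic cells, 3 of 28 members were past the fold. These were Cdh22, Pcdh20 and Pcdh9, all lower, beside 492 of 13926 genes higher and 1543 lower. The glutamatergic cells are again those of the comparisons above.

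A run of 5 type II cadherin genes lies on chromosome 15 in the order Cdh6, Cdh9, Cdh10, Cdh12 and Cdh18, with no annotated protein-coding gene between neighbours in GENCODE M21. The gaps are 3.56, 1.96, 1.44 and 0.959 megabases. Cdh9 and Cdh10 had counts in 15 and 19 of 42 MGE-derived cells and in none of 12 Cajal Retzius cells. Cdh12 and Cdh18 each had a count in 1 of 42 MGE-derived cells, and in 4 and 2 of 12 Cajal Retzius cells.

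Cdh10 was at 66.0 CPM in GABAergic cells (22 of 57), 0 in Cajal Retzius cells, 122 CPM in cells labelled VZ-derived (7 of 11) and 121 CPM in glutamatergic cells (26 of 46). Cdh9 was at 53.4 CPM in GABAergic cells (16 of 57) and 37.0 CPM in glutamatergic cells (11 of 46). Cdh12 was at 26.8 CPM in Cajal Retzius cells (4 of 12) and 33.8 CPM in cells labelled VZ-derived (5 of 11). Cdh6 had a count in 1 of 57 GABAergic, 3 of 12 Cajal Retzius and 6 of 46 glutamatergic cells. These last are too few cells to order.

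Within cells, 12 of 16 GABAergic cells with Cdh9 held Cdh10, as did 10 of the other 41. Among glutamatergic cells, 5 of 11 with Cdh9 held Cdh10, as did 21 of the other 35, and 9 of 11 with Cdh9 held Cdh12, as did 10 of the other 35. All 11 glutamatergic cells with Cdh18 also held Cdh10, as did 15 of the other 35. Of 26 glutamatergic cells with Cdh10, 8 held Cdh12, as did 11 of the other 20. These are counts of cells that share an unknown number of animals, and deeper cells can hold more genes.

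**Figure D4:**
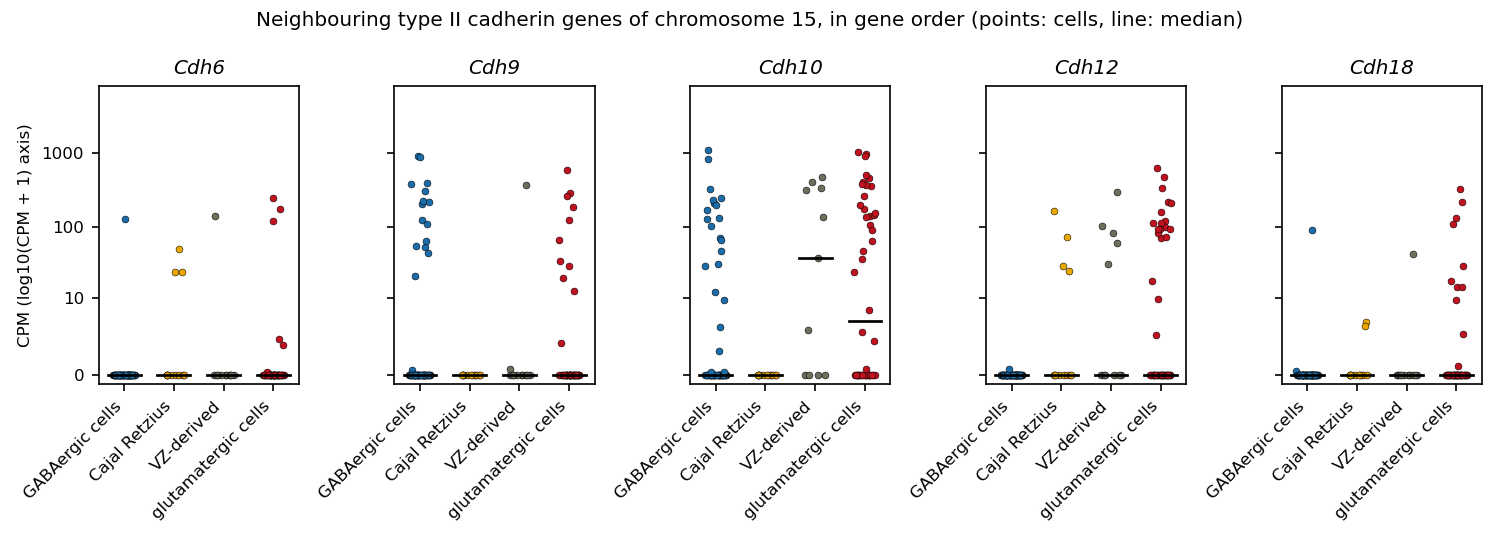
Level of the 5 neighbouring type II cadherins, in gene order, in each GABAergic, Cajal Retzius, VZ-derived and glutamatergic cell on a log10(CPM + 1) axis; the line is the median. Cdh12 has 1 GABAergic cell above 0 and 19 glutamatergic cells, whereas Cdh9 has 16 and 11.

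The promoter windows of Cdh9 and Cdh10, the pair without a count in Cajal Retzius cells, are given from the same RefSeq table, with capitals as above. Their starts lie 0.159 and 1.38 kilobases inside the GENCODE genes. Those listed for Cdh12 and Cdh18 lie 662 and 487 kilobases inside and are not shown.
Cdh9 (chr15:16728665-16728964, plus strand): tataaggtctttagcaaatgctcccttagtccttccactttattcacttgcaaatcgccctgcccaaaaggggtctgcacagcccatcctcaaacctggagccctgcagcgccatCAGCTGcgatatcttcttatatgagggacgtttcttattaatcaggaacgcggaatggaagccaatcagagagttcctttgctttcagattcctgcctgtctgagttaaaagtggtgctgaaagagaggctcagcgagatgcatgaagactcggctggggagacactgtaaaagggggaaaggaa
Cdh10 (chr15:18820079-18820378, plus strand): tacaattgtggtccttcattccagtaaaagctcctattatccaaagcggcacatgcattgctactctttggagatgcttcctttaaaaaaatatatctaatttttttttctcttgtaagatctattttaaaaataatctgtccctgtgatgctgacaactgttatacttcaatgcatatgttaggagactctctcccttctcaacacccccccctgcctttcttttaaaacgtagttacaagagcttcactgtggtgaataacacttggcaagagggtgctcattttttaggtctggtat

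The Cdh9 window held CAGCTG once and the Cdh10 window none of the 5 motifs. GC content was 48.7% and 37.7%.

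The driver line was compared within a label, where line, animals and any batch cannot be told apart. Among Glutamatergic 1 cells, 9 of 28 members were past the fold between the Nex and the Htr3a line, beside 18.2% of 12508 genes (6.04% higher and 12.2% lower), the highest background of the 8 comparisons. Cdh4, Pcdh8, Pcdh15, Pcdh19 and Pcdh20 were higher and Cdh11, Cdh12, Cdh18 and Pcdh17 lower in Nex cells. Nex cells held a median of 4311.5 genes and Htr3a cells 5183. In cells of 4000 to 8000 genes, 6 of the Nex and 15 of the Htr3a line, Cdh4 and Cdh11 were not past the fold. The other members named stayed, and Cdh9 and Pcdh11x were added as lower in Nex cells.

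Pcdh19 was at 107 CPM in Nex cells, with a count in 5 of 10, and 3.99 CPM in Htr3a cells, in 4 of 23. Single cells ranged from 0 to 479.5 CPM in the Nex line and from 0 to 72.5 CPM in the Htr3a line. Pcdh15 was at 54.0 CPM in 7 of 10 Nex cells and 2.85 CPM in 4 of 23 Htr3a cells, and without the highest cell at 12.5 and 0.910 CPM. Pcdh8 was at 290 and 29.3 CPM, Cdh4 at 236 and 78.3 CPM, and Pcdh20 at 138 and 29.4 CPM in the same order. The ranges of the lines overlapped for every member past the fold, since both lines held cells at 0.

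On the lower side, Cdh11 was at 30.9 CPM in Nex cells and 114 CPM in Htr3a cells, and without the highest cell at 0.4655 and 98.6 CPM. Pcdh17 was at 2.11 CPM in 3 of 10 Nex cells and 37.9 CPM in 14 of 23 Htr3a cells. Cdh12 was at 13.6 and 86.4 CPM and Cdh18 at 1.58 and 32.8 CPM in the same order. Among the listed partners Ctnnb1, the beta-catenin gene, was at 157 CPM in 7 of 10 Nex cells and 444 CPM in 22 of 23 Htr3a cells. Fat1, Fat3 and Dchs1 of the wider superfamily were higher in Nex cells, Dchs1 at 272 CPM against 46.6 CPM. Arvcf was higher and Jup, Nckap1 and Wasf3 were lower. Microglial markers were present by the rule in 1 of 10 Nex and 3 of 23 Htr3a cells, and erythrocyte markers in 0 of 10 and 7 of 23. The same 9 members were past the fold without the narrower set. Without the wider set, in 9 Nex and 13 Htr3a cells, 8 of them were, and Cdh11 was not, at a log2 difference of -2.10 but a ratio of summed counts that fell short.

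**Figure D5:**
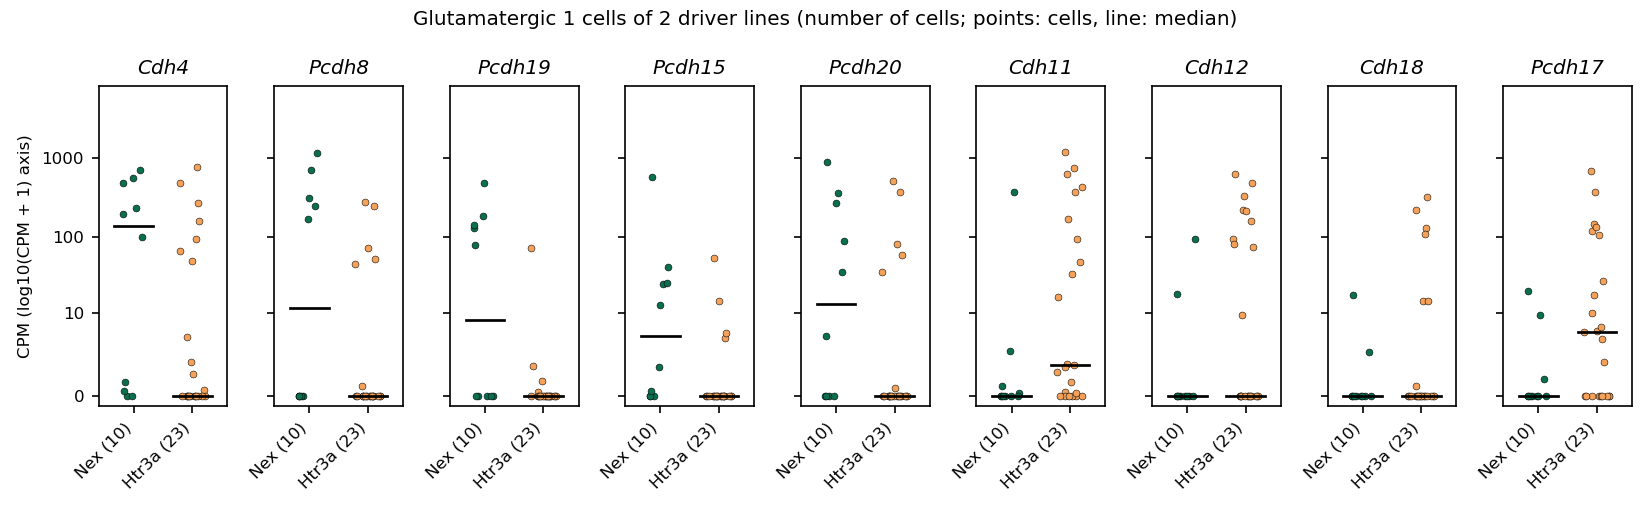
CPM of the 9 members past the fold in each Glutamatergic 1 cell of the Nex line (10 cells) and the Htr3a line (23 cells) on a log10(CPM + 1) axis; the line is the median. Cdh4, Pcdh8, Pcdh15, Pcdh19 and Pcdh20 have a larger share of Nex cells above 0 and the other 4 a larger share of Htr3a cells.

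Among MGE-derived cells, 1 of 26 members was past the fold between the Lhx6 and the Htr3a line, beside 15.2% of 14147 genes (4.39% higher and 10.9% lower). Cdh9 was at 204 CPM in Lhx6 cells, with a count in 7 of 14, and 34.2 CPM in Htr3a cells, in 8 of 28. Single cells ranged from 0 to 911 CPM in Lhx6 cells and from 0 to 382 CPM in Htr3a cells, and the log2 difference was 1.78 (SD 4.41 and 3.11). Cdh9 was also past the fold within MGE-derived 1 and within MGE-derived 2 cells taken alone. The lines differed in depth, with medians of 4581.5 and 5493.5 genes per cell. Microglial markers were present by the rule in 0 of 14 Lhx6 and 6 of 28 Htr3a cells, and erythrocyte markers in 6 of 14 and 8 of 28. Cdh9 was past the fold without the narrower set, in 14 and 21 cells, and without the wider set, in 8 and 14 cells. Of the other lists, Vcl, Wasf1 and Fat4 were higher and Ctnnd1, Wasf3, Abi1 and Celsr3 lower in Lhx6 cells. Ctnnd1 had no count in Lhx6 cells, against 93.1 CPM in 12 of 28 Htr3a cells.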

How the data were processed

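Whole-number counts per gene were deposited by the authors for 162 cells, keyed by Ensembl ID. Trimmomatic, STAR, featureCounts and build GRCm38 are named in the submitters' processing notes, with no versions. The strand setting of the counting is not given in the sources used here. The authors also deposited a normalized signal per gene (22800 genes): all 1399 member values above 0 equalled the count over 1 factor per cell, within 1e-06. A second count table by symbol held 9724 genes and 23 members, all with equal counts.

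CPM were computed from the counts, with symbols from GENCODE M21 for 22570 of 22880 IDs. Fold rules used log2(CPM + 1). Thinning drew 1500000 reads per cell. Intervals are exact Poisson at the 95% level, and they and the floor of 3 counts cover counting error only. Members and lists were chosen with earlier results of these data known. Every member is described by role, and members past the fold are named in each comparison. Genes of the other lists past the fold are named too, save the gene not reported.

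Cells that failed quality control (14) entered no comparison. Of the listed genes outside the members, 1 is not reported here. No 2 cells had identical counts. Alternatives covered the call rule, pseudocount, filters, normalization, depth, driver line and, chosen after seeing the data, leaving out cells with at least 3 markers at 10 or more counts of non-neuronal cells (without and with erythrocytes) or of the other neuron class. Each sample is 1 pipette aspirate, so fewer transcripts and a lost part of a cell cannot be told apart. Exons of Cdh8, Cdh9, Cdh12, Pcdh7, Pcdh8, Pcdh10 and Pcdh19 overlap genes with no row in the count table, and without the strand setting such reads cannot be told apart. Python 3.11.15, NumPy 2.4.6, SciPy 1.17.1, pandas 2.3.3 and Matplotlib 3.10.9 were used.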

Additional observations from a re-analysis of the deposited data

Results flagged for a closer look

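In 30 sets of a member and a group of 4 to 10 cells, the gap of the extreme cell to its neighbour was compared with the range on the log2(CPM + 1) scale, and 7 had a single cell far above the others. Chance flags about 1 in 20 such groups only where values are normally spread and groups are independent. Here many cells were at or near 0 and the sets share cells, so the 7 cannot be set against that rate. Among the 4 cells labelled GABAergic, cell 1 was the high one for Pcdh9, with a gap of 0.920 of the range (320 CPM, next cell 0.586), for Pcdh17, with 0.941 (131 CPM, next 0.335), and for Pcdh15, with 0.911 (4.68 CPM, next 0.168). Among the 10 Nex line cells of Glutamatergic 1, Cdh8 had a gap of 0.950 (820.4 CPM, next 0.397), Cdh6 one of 0.819 (174 CPM, next 1.55), Cdh11 one of 0.779 (365 CPM, next 2.68) and Cdh18 one of 0.558 (17.47 CPM, next 2.63), each in a different cell.

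In the 14 cells that failed quality control, which no comparison used, 19 members had more than 3 counts. Pcdh9 was at 528 CPM in 5 of these cells, Cdh13 at 345 CPM in 7, Cdh2 at 286 CPM in 5 and Cdh10 at 63.9 CPM in 3.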

How the results depend on the processing

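Of 407 values of single named members under the alternatives, 385 were in the same direction at 1 or more on the log2 scale, 22 were under 1 and none changed direction. All these members were taken because they were past the fold in the main setting. Their values from summed counts, a condition of that call, and from the symbol table, with equal counts, could not disagree. For GABAergic against glutamatergic cells, 6 members became 14 from summed counts alone, 12 from the mean log2 alone, 3 at a pseudocount of 10, 1 at a log2 difference of 2, 10 with the deposited normalized values and 12 in the Htr3a line. For MGE-derived against CGE-derived cells, 8 became 14 from the mean log2 alone. For MGE-derived 1 against 2, 1 became 9 from summed counts, 6 from the mean log2, 2 without the condition on the highest cell, 0 at a pseudocount of 10, 0 at a log2 difference of 2, 3 with normalized values, 2 each in cells of 4000 to 8000 genes, without cells holding microglial, vascular, meningeal or oligodendrocyte-lineage markers and in the Htr3a line, and 3 when cells with erythrocyte markers were left out too. Pcdh10 was not among the members with normalized values, in cells of 4000 to 8000 genes or without the narrower set. For Glutamatergic 1 against 2, 9 became 14 from summed counts and 2 at a log2 difference of 2. For cells labelled VZ-derived against glutamatergic cells, 2 became 6 from summed counts, 5 from the mean log2, 1 at a pseudocount of 10, 1 at a log2 difference of 2, 4 with normalized values, 6 in cells of 4000 to 8000 genes, 4 without cells holding those non-neuronal markers and 5 without erythrocyte markers too. For the Lhx6 against the Htr3a line, 1 became 7 from summed counts, 4 from the mean log2, 0 at a log2 difference of 2, 4 in cells of 4000 to 8000 genes, 3 in MGE-derived 1 and 2 in MGE-derived 2 cells. For the Nex against the Htr3a line, 9 became 16 from summed counts and 5 at a log2 difference of 2. The cause of these changes was not tested. For Cajal Retzius against glutamatergic cells the count stayed between 8 and 17, apart from the symbol table, which held 6 of the 12 members and gave all 6. No paired analysis was possible because the result comes from no test and the replicate numbers, given in accession order, name no animal or batch.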
